A study of Mus musculus with 6 samples.

Results

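Of 39374 genomic regions that carried an estrogen receptor alpha (ERα) peak in at least 1 of 6 libraries of male mouse limbic brain, 346 carried a peak in every library, overlapped no protein-coding gene and lay more than 1 kb from both ends of every such gene. They are called members below. Regions were made by merging overlapping or touching peaks of the 6 lists, and genes were those of the RefSeq table of GRCm38.p6, whose coordinates are those of mm10. Members were chosen by the presence of a called peak in all 6 lists and by position, so neither is a finding. In all, 2863 regions had a peak in every library and are called constant regions. Of these, 2061 lay within 1 kb of an end of a protein-coding gene and 456 lay inside one. Outside protein-coding genes, 458 regions had a peak in 5 libraries and 10454 in 1.

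The assay was CUT&RUN, in which an antibody to the protein of interest directs a nuclease to cut the chromatin around it in intact nuclei, and the released fragments are sequenced. All animals were adult C57/BL6 males, gonadectomized at 10 to 12 weeks of age, which removes the gonadal source of sex hormone. After 3 weeks they received 5 µg of estradiol benzoate, an ester of estradiol, under the skin (3 libraries) or the corn oil vehicle (3 libraries), and nuclei were taken 4 h later. Gonadectomy was thus shared by both groups. The labels of replicate 3 in both groups are shorter than the others (tissue given as brain, no strain or treatment tag), and their peaks are named in another style. The labels do not say whether libraries came from separate animals or from pools, so p-values below reflect library-to-library spread only, part or all of which could be technical. Limbic tissue holds many cell types, and fewer cells with a site and less binding per cell cannot be told apart. Peak lists hold no expression values, so the labelled tissue was not checked against marker genes.

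ERα, the product of Esr1, is a nuclear receptor that binds DNA as a dimer when it holds estradiol. Its best known site, the estrogen response element, is a pair of inverted AGGTCA arms 3 bases apart, and in many tissues most of its sites lie away from promoters. Regions between protein-coding genes can hold enhancers, insulators, repeats and the promoters of non-coding genes. Long non-coding RNA (lncRNA) genes are transcribed by RNA polymerase II, often from promoters rich in CpG dinucleotides like those of protein-coding genes. Genes for tRNAs and Y RNAs are short and are transcribed by RNA polymerase III.

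Outside genes held for protein-coding genes only. Of the 346 members, 82 (23.7%) lay within 1 kb of an end of a non-coding gene of the same RefSeq table, 51 (14.7%) lay farther inside one, and 213 (61.6%) lay outside all annotated genes. By the nearest such end, 59 of these 82 members lay at lncRNAs, 9 at tRNAs and 6 at pseudogenes. Another 4 lay at miRNAs, 3 at transcribed pseudogenes and 1 at a Y RNA. These are counts of members, and some genes, such as Rn18s-rs5, had several. A promoter window of a lncRNA gene, from 250 bp before to 50 bp after a start, was overlapped by 33 members (9.54%).

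The promoter sequences of 6 members are shown because called peaks stood on them in every library and because their letters can be compared. Whether these peaks reflect bound receptor was not tested. They are RefSeq promoter windows of 300 bases on GRCm38.p6, read 5′ to 3′ on the strand of the gene. Capitals mark GC boxes (GGGCGG, or CCGCCC on the other strand) and CCAAT boxes (CCAAT, or ATTGG on the other strand), which may overlap each other. The windows are those of Gm36220 at chr11:106500665-106500964 (+ strand), Mir22hg at chr11:75461289-75461588 (+ strand), 2900052L18Rik at chr11:120231568-120231867 (- strand), 5430416N02Rik at chr5:100429486-100429785 (- strand), Oip5os1 at chr2:119594046-119594345 (+ strand) and 1700030C14Rik at chr2:152654281-152654580 (- strand).
Gm36220: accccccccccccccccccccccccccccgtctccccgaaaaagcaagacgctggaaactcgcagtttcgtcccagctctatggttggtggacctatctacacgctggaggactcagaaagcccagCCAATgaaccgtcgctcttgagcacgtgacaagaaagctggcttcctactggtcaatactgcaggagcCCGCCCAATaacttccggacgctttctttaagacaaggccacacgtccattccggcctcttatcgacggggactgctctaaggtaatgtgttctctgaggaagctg
Mir22hg: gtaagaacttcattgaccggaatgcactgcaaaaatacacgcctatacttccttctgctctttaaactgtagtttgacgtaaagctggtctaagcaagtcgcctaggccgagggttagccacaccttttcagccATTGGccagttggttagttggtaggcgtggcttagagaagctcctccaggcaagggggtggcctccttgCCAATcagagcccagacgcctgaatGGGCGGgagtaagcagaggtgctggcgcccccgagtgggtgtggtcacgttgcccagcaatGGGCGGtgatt
2900052L18Rik: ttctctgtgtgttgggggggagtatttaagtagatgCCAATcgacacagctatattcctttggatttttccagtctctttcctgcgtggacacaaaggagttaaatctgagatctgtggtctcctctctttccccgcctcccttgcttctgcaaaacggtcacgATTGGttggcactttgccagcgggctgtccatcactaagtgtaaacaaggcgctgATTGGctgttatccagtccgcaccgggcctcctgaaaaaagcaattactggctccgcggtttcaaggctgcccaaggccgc
5430416N02Rik: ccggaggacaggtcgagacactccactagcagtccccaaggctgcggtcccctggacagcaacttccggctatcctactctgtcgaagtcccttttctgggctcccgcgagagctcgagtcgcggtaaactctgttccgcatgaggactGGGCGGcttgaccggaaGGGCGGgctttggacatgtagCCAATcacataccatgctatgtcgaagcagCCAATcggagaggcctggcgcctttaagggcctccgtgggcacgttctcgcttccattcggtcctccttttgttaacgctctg
Oip5os1: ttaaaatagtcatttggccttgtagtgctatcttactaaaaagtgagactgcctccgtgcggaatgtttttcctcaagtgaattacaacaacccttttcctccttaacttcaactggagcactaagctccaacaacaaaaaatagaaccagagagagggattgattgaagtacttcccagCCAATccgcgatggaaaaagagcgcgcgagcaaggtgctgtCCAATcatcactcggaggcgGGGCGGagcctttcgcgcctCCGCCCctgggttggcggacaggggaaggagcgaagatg
1700030C14Rik: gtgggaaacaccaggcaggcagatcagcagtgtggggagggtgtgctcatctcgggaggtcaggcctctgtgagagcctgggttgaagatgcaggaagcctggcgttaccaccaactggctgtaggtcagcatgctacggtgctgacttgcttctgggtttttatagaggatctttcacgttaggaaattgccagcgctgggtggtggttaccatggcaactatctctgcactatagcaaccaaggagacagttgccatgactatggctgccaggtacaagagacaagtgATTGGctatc
These windows hold 16, 12, 12, 22, 15 and 5 CpGs in the same order. Gm36220, Mir22hg, 5430416N02Rik and Oip5os1 hold both kinds of box, 2900052L18Rik holds 3 CCAAT boxes and no GC box, and 1700030C14Rik holds 1 CCAAT box and no GC box. The last window also holds a match to the motif of RFX factors.

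The 33 lncRNA windows under members were rich in CpGs and in these boxes. Their median was 18 CpGs (range 4 to 33), against 4 over all 11588 lncRNA windows and 5 over the 119 lncRNA windows overlapped by regions of 1 library. The median over the 1947 protein-coding windows under constant regions was 23. At least 10 CpGs were held by 29 of the 33 (87.9%), against 19.1% of all lncRNA windows and 96.6% of those protein-coding windows. A GC box was found in 20 of 33 (60.6%), against 16.3% of all lncRNA windows, 73.9% of protein-coding windows under constant regions and 35.7% of all 32851 windows. A CCAAT box was found in 19 of 33 (57.6%), against 36.0%, 66.2% and 37.4% of the same sets. A GC box itself holds a CpG, so its shares are not independent of the CpG counts. Windows of matched CpG content were not compared. No window of the 33 held the full estrogen response element, which was in 7 of all windows (0.0213%). A single arm, AGGTCA on either strand, was in 9 of 33 (27.3%), against 19.1% of lncRNA windows and 16.3% of all windows. In protein-coding windows under constant regions it was rarer, at 9.45%. The RFX motif was in 2 of 33, those of 1700012C14Rik and 1700030C14Rik, and in 0.128% of all windows. It was also in 2 of the 119 lncRNA windows under regions of 1 library (1.68%). RFX is named from a longer list of motifs searched, and its share rests on 2 windows. A match describes letters in a window of 300 bp and shows no binding, and sequence of members away from these windows was not used here.

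Most summits on these 33 windows lay before the annotated start, which the choice of windows favours. Members and the protein-coding set below were chosen by overlap with windows reaching 250 bp before a start and 50 bp after it. How far this sets the shares before the start was not tested. The median position over the 6 libraries was −64 bp in the median member, and in 28 of 33 it was before the start, 22 of them within 150 bp. At 1567 constant regions on protein-coding promoters the median was −81 bp, and 92.0% lay before the start against 84.8% of the members. Oip5os1, also known as Cyrano, a lncRNA that triggers decay of miR-7, had its summits at −40, −57 and −53 bp in vehicle replicates 1 to 3 and at −75, −53 and −46 bp in estradiol replicates 1 to 3. Dancr, a small nucleolar RNA host gene, had them at −54, −70 and −66 bp with vehicle and −43, −78 and −63 bp with estradiol. Chaserr, a lncRNA that represses its neighbour Chd2, had them farther out, between −332 and −249 bp. In the plot of summits by gene the 6 libraries of most genes sit close together, and D130051D11Rik, with a summit at −125 bp in estradiol replicate 2 and at 140 to 178 bp in the others, is the widest spread.

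**Figure D1:**
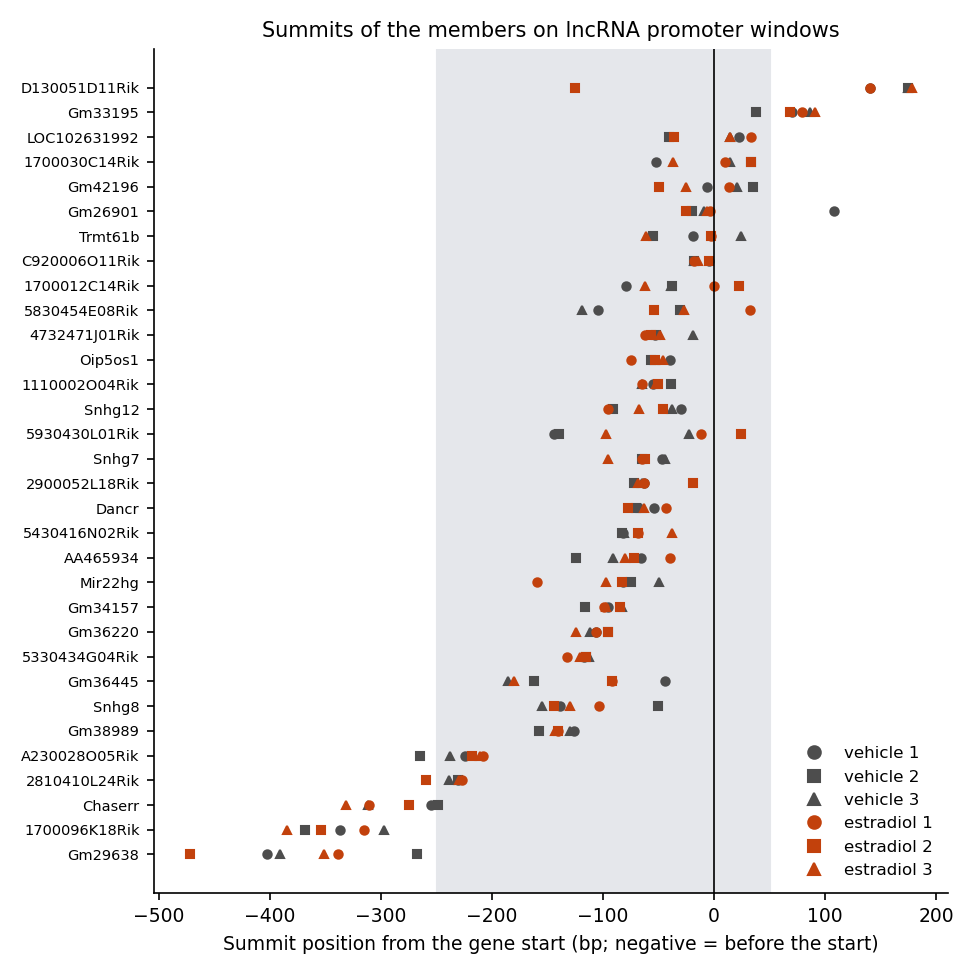
Position of the highest peak's summit from the annotated start, in bp (horizontal axis), for 32 of the 33 members on a lncRNA promoter window, 1 gene per line, with 1 point per library. The grey band is the promoter window and the line at 0 the start; the median of the 33 is −64 bp.

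The share of regions at non-coding gene ends was larger among regions held by more libraries. Among regions outside protein-coding genes, 7.63% of those in 1 library (798 of 10454, exact 95% binomial interval 7.13 to 8.16) lay within 1 kb of a non-coding gene end. The share was 10.7% in 2 libraries, 11.8% in 3, 13.6% in 4 and 15.9% in 5, and 23.7% among the members (19.3 to 28.5). Lying on a lncRNA promoter window went from 1.22% (1.02 to 1.45) in 1 library to 9.54% (6.66 to 13.1) in all 6. For tRNA gene ends it went from 0.526% (0.397 to 0.684) to 2.60% (1.20 to 4.88). The share lying inside non-coding genes had overlapping intervals, at 13.6% (12.9 to 14.2) and 14.7% (11.2 to 18.9). Width moved with these shares: the median region was 43 bp wide in 1 library and 183.5 bp among members, and a wider region reaches a gene end more easily. Its part in the shares was not tested. These intervals cover counting error only, and regions are not replicates.

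**Figure D2:**
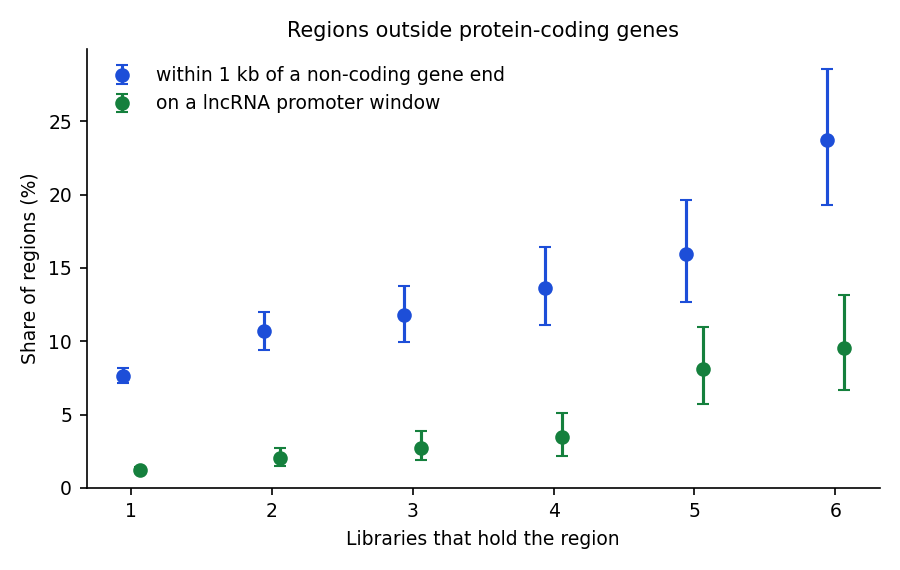
Share of regions outside protein-coding genes (vertical axis, percent) that lie within 1 kb of a non-coding gene end (blue) or on a lncRNA promoter window (green), by the number of libraries that hold the region; bars are exact 95% binomial intervals. The members, at 6 libraries, reach 23.7% and 9.54%.

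Distances to protein-coding genes were shorter among regions held by more libraries. The median distance to the nearest one was 18.75 kb among members and 54.9 kb among regions of 1 library, with 35.1, 31.5, 25.7 and 20.3 kb in 2 to 5 libraries. Within 5 kb lay 66 members, 97 lay beyond 50 kb and 6 beyond 500 kb. For 58 members (16.8%, 13.0 to 21.1) the nearest protein-coding gene also had a constant region at one of its own ends, against 9.85% (9.29 to 10.4) for regions of 1 library. This share did not follow the number of libraries in order, at 10.9%, 12.6%, 8.53% and 13.5% in 2 to 5 libraries, and the interval at 5 libraries (10.5 to 17.0) overlapped that of the members. The nearest gene is given below as a landmark only, since the data do not say which gene a region acts on.

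The number of fragments at a summit was worked out from the deposited fold enrichment and p-value, on the assumption that the peak caller's default formulas were used. The median member stood on 8, 11 and 15 fragments in vehicle replicates 1 to 3 and on 9, 10 and 13 in estradiol replicates 1 to 3. No member had fewer than 4 in any library. Summits of 6 fragments or fewer were found at 120 members in vehicle replicate 1 and at 24 in vehicle replicate 3, with 35 to 71 in the others. The lists held 5421, 13717 and 20541 peaks with vehicle and 11082, 14123 and 17558 with estradiol. Vehicle replicate 1 is thus the shortest list and has the lowest median −log10 q of the members, 5.43 against 7.89 to 14.1 elsewhere. It decides many memberships, and 658 regions met the rule without it.

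Heights were compared within each list as the percentile rank of a region's highest peak by −log10 q, where 100 is the top of the list. The highest member by the lowest of its 6 ranks was chr1:195018200-195018467, 20.5 kb from Cd46, a regulator of complement. It lay inside A330023F24Rik, 801 bp past its start, the lncRNA that hosts Mir29b-2 and Mir29c. Its summit held 52, 87 and 164 fragments with vehicle and 72, 73 and 185 with estradiol. Replicate 3 was highest in both groups, and the groups overlapped. A second member, chr1:195016881-195016989, lay 410 bp before the start of the same lncRNA, with 26, 31 and 31 fragments with vehicle and 45, 26 and 39 with estradiol.

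The third highest member was chr15:103305266-103305450, 2.78 kb from Gpr84, a receptor for fatty acids on myeloid cells. It held 23, 51 and 108 fragments with vehicle and 31, 37 and 90 with estradiol, and the groups overlapped. Others of the 10 highest lay near Klrb1b, a natural killer cell receptor (10.4 kb), and Zbtb20, a zinc finger repressor that acts in hippocampal development (157 kb). More lay near Hexim2, an inhibitor of transcription elongation (2495 bp), and Axin2, a negative regulator of Wnt signalling (60.9 kb). Members near Mfsd6l (8.31 kb) and Gcm1, a placental transcription factor (12.7 kb), were also among them. Summits of these members, from Klrb1b to Gcm1, held between 17 and 53 fragments. Those near Klrb1b, Axin2 and Mfsd6l lay inside lncRNA genes.

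**Figure D3:**
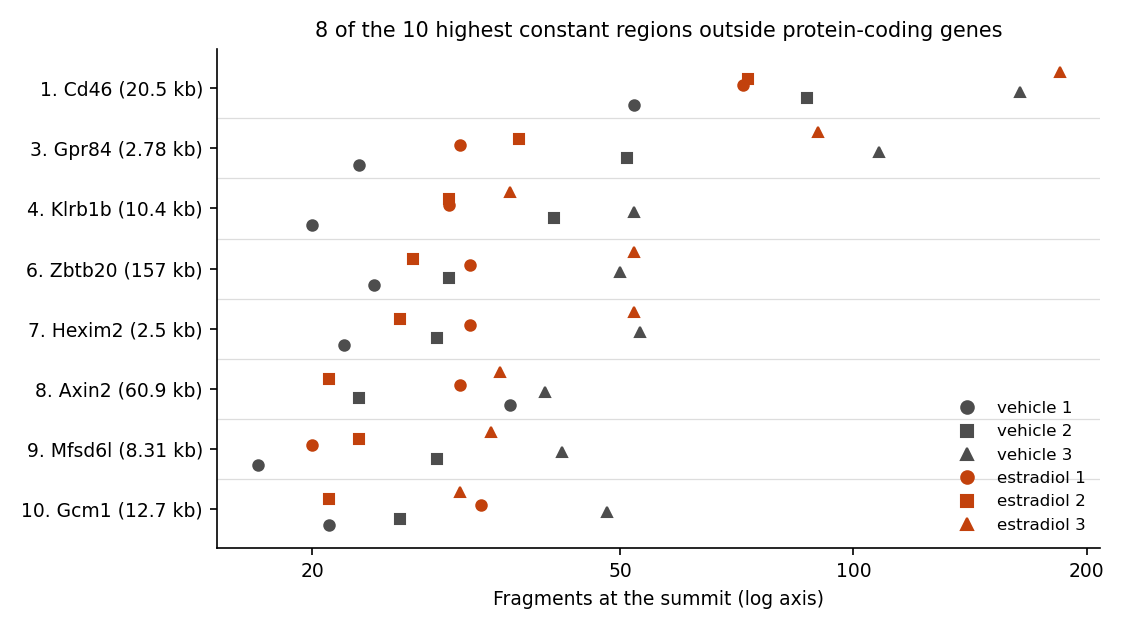
Fragments at the summit (horizontal log axis) in each library for 8 of the 10 highest members, labelled by rank, nearest protein-coding gene and distance; grey is vehicle, orange estradiol, and the shape gives the replicate. Vehicle and estradiol points overlap at each member, and the region near Cd46 spans 52 to 185 fragments.

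The lowest members stood near the calling threshold in their weakest libraries only. Their highest −log10 q in any library was 10.9 near Hspa13, 9.56 near Zfp326 and 9.43 near Lpp. The region near Hspa13 held 4, 8 and 11 fragments with vehicle and 5, 5 and 12 with estradiol. The region near Zfp326 held 4, 4 and 9, and 8, 4 and 5. The region inside a lncRNA gene near Lpp held 6, 7 and 8, and 4, 4 and 11. At such counts a missing peak in a library does not show absence of binding.

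Extremes of distance and width were named as well. The most remote member was chr6:20037899-20038045, 1158 kb from Ankrd7, with 4 to 6 fragments. A pair on chromosome 2, 1035 and 808 kb from Lrrc4c, a synaptic adhesion protein gene, held 5 to 10. No filter for repeats or for regions prone to artefact signal was applied here. Whether reads at these remote members come from repeated sequence was not tested. The widest member, chr17:39843836-39845990 (2155 bp, 25 peaks), lay 364 bp from Rn18s-rs5, a pseudogene of the 18S ribosomal RNA, with 52, 39 and 49 fragments with vehicle and 40, 40 and 40 with estradiol. Another 3 members lay within a few kb of it, with 24 to 47 fragments. Ribosomal DNA is present in many copies, so reads at these 4 members may come from any of them. The second widest, chr12:100265912-100266423 (512 bp), lay 34.3 kb from Ttc7b, with 17 to 36 fragments. The third widest, 470 bp, lay 8.32 kb from Ncoa5, a coactivator of nuclear receptors, with 12 to 28 fragments.

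Values on both sides of the 1 kb boundary are given for the nearest regions. Just outside it lay the members near Fmc1 (1014 bp; 9 to 22 fragments) and Nfic, a transcription factor gene (1065 bp; 5 to 45). Just inside it lay constant regions near Oprl1, the nociceptin receptor gene (965 bp; 5 to 7), Foxo3, a forkhead factor gene (951 bp; 7 to 14), and Adamts4 (917 bp; 25 to 58).

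At non-coding gene ends, high members also stood on promoters. Gm36220, with a summit about 106 bp before its start, held 18, 25 and 26 fragments with vehicle and 22, 27 and 31 with estradiol. Mir22hg, the host of Mir22, held 25, 27 and 32 with vehicle and 31, 31 and 26 with estradiol. The 2900052L18Rik promoter held 28, 36 and 43 with vehicle and 32, 36 and 29 with estradiol, and that of 5430416N02Rik held 14, 27 and 39, and 18, 25 and 33. The groups overlapped at each of these. By the lowest of the 6 ranks, other well described lncRNAs came later in the order, although Oip5os1 had more fragments than Gm36220 in some libraries. Oip5os1 held 18, 27 and 51 fragments with vehicle and 10, 16 and 52 with estradiol, and Dancr held 6, 7 and 19, and 10, 7 and 18. Summits at Chaserr and at the small nucleolar RNA hosts Snhg7, Snhg8 and Snhg12 held 6 to 27. Inside lncRNA genes lay members in Meg3, an imprinted lncRNA (7 to 22 fragments), Mir100hg (10 to 28) and Ftx, of the X-inactivation centre (2 members, 4 to 10).

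Several members stood near miRNA genes, and mature sequences of the hosted or nearest miRNAs are printed from RefSeq (GRCm38.p6) with the seed, bases 2 to 8, in capitals, to show which share a seed.
mmu-miR-29b-3p: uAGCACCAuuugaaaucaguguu
mmu-miR-29c-3p: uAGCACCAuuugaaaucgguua
mmu-miR-22-3p: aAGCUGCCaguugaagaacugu
mmu-miR-344b-3p: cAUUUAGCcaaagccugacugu
The miR-29b-3p and miR-29c-3p sequences, both from the lncRNA at the highest member, share the seed AGCACCA. The other 2 have seeds of their own. The member at chr7:61790580-61790757 overlapped the Mir344b hairpin (chr7:61790519-61790581) only at the edge. It held 8, 23 and 46 fragments with vehicle and 5, 11 and 57 with estradiol. Replicate 3 was highest in both groups there, and the groups overlapped. Another member lay 20 bp from Mir344f, with 5 to 16 fragments. A pair of members flanked Mir7-2 at 2.64 and 2.43 kb, with 16, 20 and 52 fragments with vehicle and 15, 19 and 53 with estradiol at the first, and 8 to 17 at the second.

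Some members formed groups. Joined where gaps were at most 100 kb, 280 stood alone, and the rest formed 17 pairs, 5 triples, 3 groups of 4 and 1 group of 5. The group of 5 ran along chromosome 11 from the promoter of 2810410L24Rik past the promoter of 2900052L18Rik, near Bahcc1, and held 6 to 48 fragments. Chromosome 7 held 32 members, chromosome 11 held 28 and chromosome 2 held 26, and the fewest, 6, were on chromosome 18.

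Members were lower, narrower and more sharply placed than constant regions at the ends of protein-coding genes. Their median percentile rank, averaged over 6 libraries, was 81.0 ± 7.54 (SD, n = 6), against 86.0 ± 6.69 at gene ends. The within-library difference was −5.06 ± 2.48 (SD) and negative in 6 of 6 libraries (two-sided exact sign-flip permutation test, p = 0.03125, the smallest that 6 libraries allow, Benjamini-Hochberg adjusted p = 0.0375 over 6 class tests). Median summit fragments at gene ends were 8, 12 and 17 with vehicle and 11, 13 and 13 with estradiol. These medians equalled those of the members in vehicle replicate 1 and estradiol replicate 3. A library's own peaks covered a median of 113 ± 22.6 bp at members and 156 ± 30.8 bp at gene ends, a difference of −43.1 ± 10.6 bp (exact adjusted p = 0.0375, lower in 6 of 6). The median distance from a library's summit to the median summit of the other 5 was 13.7 ± 0.816 bp at members and 18.0 ± 2.00 bp at gene ends, a difference of −4.33 ± 1.63 bp (exact adjusted p = 0.0375, lower in 6 of 6). Narrow peaks leave less room for summits to differ, and the part of width in that difference was not tested. The height call was lost, at −0.802 (exact adjusted p = 0.656), with lists cut to equal length, and at −1.63 (adjusted p = 0.113) where peaks had to cover 50% of a region. With the boundary at gene ends moved to 5 kb, height (−5.43), width (−41.2 bp) and summit distance (−3.83 bp) each missed the threshold (exact adjusted p = 0.0625). Without vehicle replicate 1 the height difference was −8.42, with no adjusted p under 0.05 possible for 5 libraries.

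Against the 456 constant regions inside protein-coding genes the differences were smaller. Height differed by −1.83 ± 1.36 percentile points (members 81.0 ± 7.54, inside genes 82.8 ± 8.21, n = 6), which did not pass (exact adjusted p = 0.0625, lower in 5 of 6), and its sign turned with lists of equal length (1.43). The same comparison passed with non-coding genes counted as genes (−3.59, exact adjusted p = 0.0375) and with height ranked by fold (−1.83, exact adjusted p = 0.03125). Width was −18.25 ± 6.77 bp (113 against 131 ± 27.9 bp) and summit distance −2.08 ± 1.02 bp (13.7 against 15.75 ± 1.47 bp), both lower in 6 of 6 libraries (exact adjusted p = 0.0375). Both calls were lost when the boundary at gene ends was moved to 5 kb, at −6.17 bp (exact adjusted p = 0.1875) and −0.333 bp (p = 0.75), and without vehicle replicate 1 the summit difference was −0.6 bp.

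**Figure D4:**
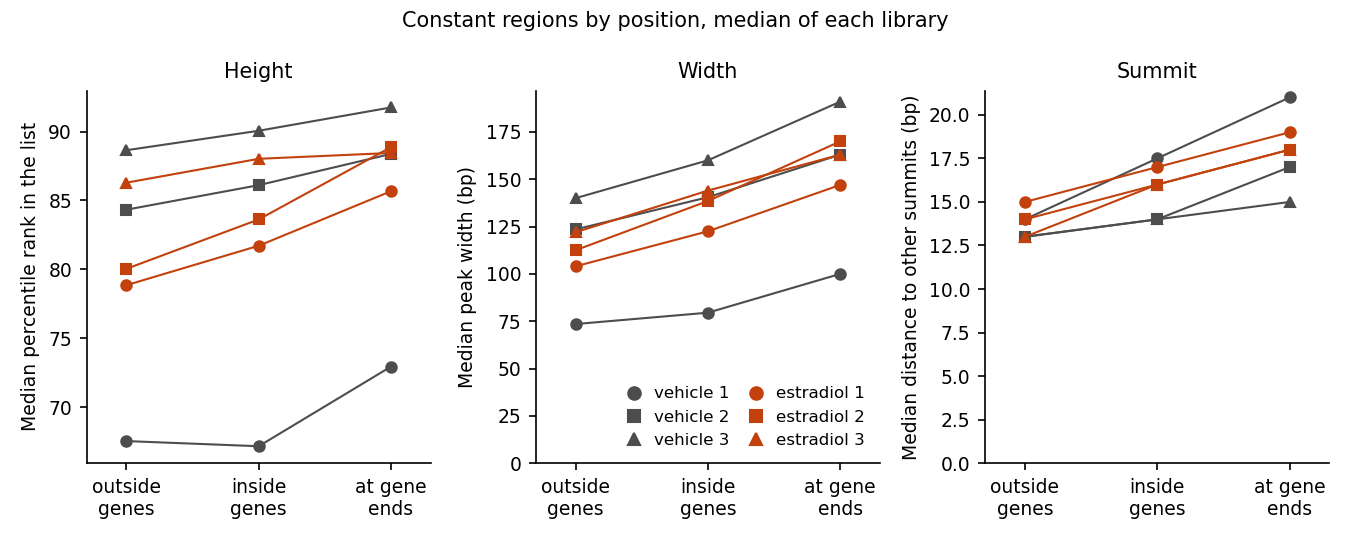
Median of each library for constant regions outside genes, inside genes and at gene ends (1 line per library, grey vehicle, orange estradiol): percentile rank in the list (axis not from 0), peak width in bp, and distance in bp from the summit to the median summit of the other libraries. Members are lower than gene-end regions in all 6 libraries on each of the 3 measures.

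Estradiol and vehicle were compared on ranks among the 2863 constant regions, a set that is the same in every library. The median member ranked at 44.9, 41.2 and 40.2 with vehicle and at 39.2, 33.3 and 45.0 with estradiol, where 50 is the middle of all constant regions. The group values overlapped. Their means were 42.1 ± 2.44 and 39.2 ± 5.82 (SD, n = 3 each), a difference of −2.96 (two-sided exact permutation test, p = 0.5; the smallest possible with 3 against 3 is 0.1). Within replicates 1 and 2 the difference was −6.81 and within replicate 3 it was +4.74, so the direction was not shared between the label styles. It also turned to +1.28 without estradiol replicate 2, to +1.77 where peaks had to cover 50% of a region and to +1.33 with lists of equal length.

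At 8 members (2.31%, 1.00 to 4.50) every estradiol library ranked above every vehicle library, against 4.09% of all constant regions. At 14 members (4.05%, 2.23 to 6.70) every vehicle library ranked above every estradiol library, against 3.67% of all constant regions. Both shares are near the background, so the counts are not a result about the members. No single region can pass a test of 3 against 3. The widest gaps are given as descriptions.

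Among the 8, the region 35.1 kb from Nlrp4f and 578 bp from lncRNA Gm36445 held 8, 13 and 16 fragments with vehicle and 19, 23 and 22 with estradiol. Its mean rank was 44.3 ± 5.93 with vehicle and 83.0 ± 5.59 with estradiol. The neighbouring member on the Gm36445 promoter held 9, 9 and 10 with vehicle and 7, 9 and 11 with estradiol, and the groups overlapped there. The region 197 bp from Rny1, a Y RNA gene that is part of Ro ribonucleoproteins, near Pdia4, held 10, 10 and 18 with vehicle and 16, 17 and 25 with estradiol (mean ranks 47.9 ± 27.0 and 78.4 ± 2.84). The region 21 bp from the tRNA gene n-TYgta10, near Rnase4, held 5, 11 and 16 with vehicle and 10, 13 and 20 with estradiol (28.6 ± 18.0 and 58.8 ± 13.9). The raw fragments overlapped between groups at the last 2, and the ranks did not.

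Among the 14, the region 87.8 kb from Npy2r, the gene of the Y2 receptor for neuropeptide Y, held 8, 14 and 15 fragments with vehicle and 5, 5 and 11 with estradiol (mean ranks 59.8 ± 12.8 and 17.9 ± 19.7). The region near Gm44805 held 8, 10 and 25, and 5, 6 and 11 (48.6 ± 25.8 and 8.03 ± 13.1). The region 67.2 kb from Ptprn2, which encodes a protein of dense-core vesicles, held 10, 12 and 13, and 7, 5 and 7 (46.1 ± 23.3 and 7.24 ± 7.84). Only at the last did the fragments separate the groups as the ranks did.

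**Figure D5:**
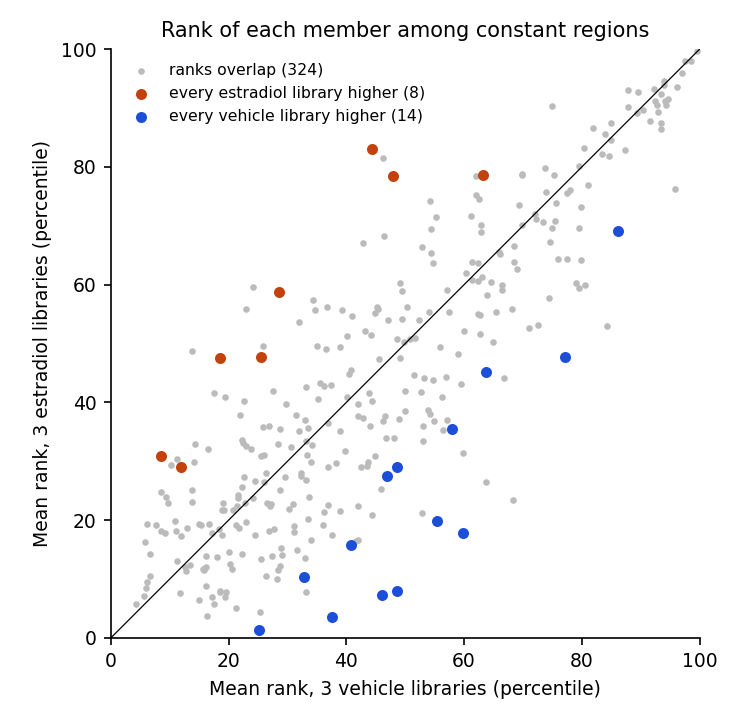
Mean percentile rank of each member among all constant regions, over the 3 vehicle libraries (horizontal) and the 3 estradiol libraries (vertical), with the line of equality. The 8 orange and 14 blue points are members whose ranks do not overlap between groups; the other members are grey.

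Ranks of members were alike in order between libraries of either kind. Over the 346 members, Spearman's rho between 2 libraries ran from 0.474 to 0.626 within a group (6 pairs, median 0.557) and from 0.462 to 0.793 between groups (9 pairs, median 0.592). The 0.793 was between vehicle 3 and estradiol 3, the 2 libraries with the other label and peak-name style, and the next highest value between groups was 0.646. Members share their mappability and base composition across libraries, and these values carry no test.

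Few members had a nearest gene from lists of known genes. Of 24 genes induced by estrogen in other tissues, 2 were the nearest gene of a member (0.578% of members, 0.411% of all regions outside genes). One was Fos, an immediate early transcription factor, at 18.4 kb, with 9, 17 and 17 fragments with vehicle and 12, 12 and 13 with estradiol. The other was Kcnh5, a potassium channel gene, at 239.9 kb, with 5 to 15. Immediate early genes gave 3 members (0.867% against 0.352%): that near Fos, 1 near Nr4a1, an orphan receptor (7.36 kb), with 5, 11 and 18, and 8, 14 and 12 fragments, and 1 near Ier2 (1.13 kb) with 6, 7 and 10 with vehicle and 10, 10 and 10 with estradiol. The Ier2 region was among the 8 with higher estradiol ranks, 8.44 ± 2.81 with vehicle and 30.9 ± 6.78 with estradiol. Its raw fragments did not separate the groups, since both reached 10. Nuclear receptor genes gave 2 members (0.578% against 0.457%), near Nr2f1 (6.84 kb; 8 to 16 fragments) and Thrb, a thyroid hormone receptor gene (67.0 kb; 4 to 8). The melanocortin list gave 1 (0.289% against 0.222%), the Npy2r region. The clock list and the list of limbic and hypothalamic transcription factors gave 0, against 0.209% and 0.685% of all regions outside genes. With 346 members, such shares rest on 0 to 3 regions each.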

How the data were processed

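Peaks of ERα CUT&RUN in 3 vehicle and 3 estradiol libraries were used as the authors deposited them, 1 list per library. Per the submitters' processing notes the build was mm10 and the tools were MACS2, Bowtie2, cutadapt, Picard, deepTools and SAMtools, with neither version nor role stated. The authors' peak names hold a q-value of 0.01, and use of a control library is not given in the sources used. The deposited columns give a score, a fold enrichment (ratio over background), a −log10 p-value and a −log10 q-value per peak, which are the authors' values and were used to rank peaks within a list. Library depth is not given in the lists.

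Peaks were merged at 1 bp, and genes and promoter windows (300 bp) came from RefSeq GRCm38.p6. Summit fragments were solved from the fold and p-value of each peak: 1 whole number matched at 100% of members' peaks, save 1 peak in vehicle replicate 2 that a second number also matched. Class differences were tested by exact sign-flip permutation over 6 libraries and group differences by exact permutation of 3 against 3, with a threshold of 0.05 (Python 3.11.15, pandas 2.3.3, scipy 1.17.1), and the calculation was tested on simulated data. Planned sequence windows around summits were replaced by RefSeq promoter windows, since no genome was used here. Named members were the 10 highest, the 3 lowest, farthest, widest and nearest to the 1 kb boundary, up to 8 highest at non-coding ends, the 3 largest rank gaps per direction and those near listed genes; the known lncRNAs, miRNA neighbours and clusters were chosen after their values were seen. Alternatives covered the peak threshold, merging, coverage, list length, boundary, gene set, height measure, replicate block, label style and each library left out. Some members that this rule names are not reported here. The members and lists were chosen with earlier results of these data known.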

Additional observations from a re-analysis of the deposited data

How the results depend on the processing

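Height, width and summit differences kept their sign under the settings tried, except height against regions inside genes, and calls at 5 libraries cannot pass (smallest exact p 0.0625). Requiring peaks to cover 50% of a region gave 89 members, heights of −1.63 against gene ends and 0.0164 against regions inside genes, an estradiol minus vehicle rank of 1.77, and 3 members not overlapping in each direction (3.37% each, against 3.43% of all constant regions for higher estradiol and 3.53% for higher vehicle ranks). Equal list lengths gave 174 members, −0.802 and 1.43 for the 2 heights, 1.33 for estradiol minus vehicle, and 6 members with higher estradiol ranks (3.45% against 4.11%) and 7 with higher vehicle ranks (4.02% against 3.51%). Counting non-coding genes as genes gave 213 members, −3.59 for height against regions inside genes, which then passed, −1.17 bp for the summit difference there, which did not, and 2 non-overlapping members with higher estradiol ranks (0.939% against 4.09%) and 8 with higher vehicle ranks (3.76% against 3.67%). A 5 kb boundary gave −5.43 for height, −41.2 bp for width and −3.83 bp for summits against gene ends (exact adjusted p = 0.0625 each), and −6.17 and −0.333 bp for width and summits against regions inside genes. A stricter threshold gave −2.75 bp for the last (exact adjusted p = 0.075), and ranking by fold gave −1.83 for height against regions inside genes, which then passed. The cause of these shifts was not tested.

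Leaving out 1 library at a time gave 358 to 658 members, the most without vehicle replicate 1. Against gene ends, height ran from −8.42 to −5.31, width from −45.4 to −41.7 bp and summits from −5.3 to −3.9 bp. Against regions inside genes these were −2.84 to −1.78, −18.4 to −12.8 bp and −2.65 to −0.6 bp. Estradiol minus vehicle ran from −5.54 to 1.28, the only positive value being without estradiol replicate 2. Non-overlapping members numbered 21 to 54 with higher estradiol ranks (5.80% to 8.73%, against 8.13% to 10.2% of all constant regions) and 26 to 61 with higher vehicle ranks (6.88% to 11.7%, against 7.38% to 10.1%), since fewer libraries overlap less.

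Same-numbered libraries deviated together with Pearson's r of 0.145, 0.0284 and 0.288 over 2863 regions for numbers 1 to 3. Vehicle replicates 1 and 3 each correlated best with the estradiol library of their own number. Vehicle replicate 2 correlated best with estradiol replicate 1, at 0.0545. Vehicle 1 with estradiol 3 gave −0.190, and vehicle 3 with estradiol 1 gave −0.213. Deviations were taken from each group's own mean, so a positive value for a library pushes its other values below 0. The negative values are therefore not separate evidence on pairing. The numbers were not used as pairs in the main comparison, and the replicate block is given as an alternative. With the replicate block, the mean difference over the 3 pairs was −2.96 (exact sign-flip p = 0.5, smallest possible 0.25), and 31 members ranked higher with estradiol in all 3 pairs (8.96%) and 45 with vehicle (13.0%), against 12.5% of all constant regions in each direction. Within replicates 1 and 2 these were 38 (11.0% against 15.5%) and 61 (17.6% against 16.2%). Within replicate 3 they were 182 (52.6% against 49.0%) and 163 (47.1% against 50.4%), with a difference of 4.74. Median member summits of 8 to 15 fragments per library, with a minimum of 4, limit what a rank difference can show.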
